A study of Mus musculus with 12 samples.

Results

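The dual-specificity phosphatases (DUSPs) described here were 10 genes, Dusp1, Dusp2, Dusp4, Dusp5, Dusp6, Dusp7, Dusp10, Dusp14, Dusp16 and Dusp22, of 29411 named genes on the array. They were taken by symbol from all non-control spots and were read by 13 of 61307 probes, with a pair of probes each for Dusp1, Dusp14 and Dusp22. The RNA came from resting B (RB) cells of the spleens of 6-week-old BALB/c mice, described as female in the labels, and was labelled with Cy3 and hybridised to 12 one-colour arrays. RB cells were isolated by negative selection, which removed cells carrying CD43. Every condition had 2 arrays after 4 h of culture. The conditions were unstimulated cells, Pam2CSK4 (a synthetic lipopeptide ligand of TLR-2), anti-CD86 antibody, anti-CD86 with Pam2CSK4 (TLR2.CD86), anti-CD40 antibody, and anti-CD40 with Pam2CSK4. No array carried a genetic change, and an isotype control antibody was not analysed here.

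DUSPs remove phosphate from both the threonine and the tyrosine of the activation loop of MAP kinases and so end ERK, p38 and JNK signals. Several are immediate early genes that the same kinases induce, which makes them part of a negative feedback loop. In lymphocytes they follow antigen receptor, costimulatory and TLR signals. Dusp1, Dusp2, Dusp4 and Dusp5 encode inducible phosphatases of the nucleus, Dusp6 and Dusp7 encode cytoplasmic enzymes that prefer ERK, and Dusp10 and Dusp16 encode enzymes that prefer p38 and JNK. Dusp14 and Dusp22 encode small atypical members that lack the MAP kinase docking domain, and both are known as negative regulators of T cell receptor signals.

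Dusp1, Dusp14 and Dusp22, each read by a pair of probes, rose under anti-CD40 with Pam2CSK4 by the brighter probe, and the 250 bases upstream of their annotated starts are shown as examples of the members that rose. The sequences are from RefSeq (GRCm38.p6, 5′ to 3′ on the strand of the gene), which held an entry for 9 of the 10 members. The search covered both strands for the cyclic AMP response element (CRE), TGACGTCA, and for its core TGACG. It also covered the AP-1 motif, whose letters are TGANTCA, the NF-kB motif and the serum response motif (CArG box). Capitals mark a match.
Dusp1 (chr17:26508473-26508722, minus strand): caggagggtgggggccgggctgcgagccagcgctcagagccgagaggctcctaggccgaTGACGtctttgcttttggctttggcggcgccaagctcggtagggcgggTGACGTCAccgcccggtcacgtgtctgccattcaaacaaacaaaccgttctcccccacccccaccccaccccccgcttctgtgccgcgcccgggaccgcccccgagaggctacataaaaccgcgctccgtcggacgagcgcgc
Dusp14 (chr11:84068358-84068607, minus strand): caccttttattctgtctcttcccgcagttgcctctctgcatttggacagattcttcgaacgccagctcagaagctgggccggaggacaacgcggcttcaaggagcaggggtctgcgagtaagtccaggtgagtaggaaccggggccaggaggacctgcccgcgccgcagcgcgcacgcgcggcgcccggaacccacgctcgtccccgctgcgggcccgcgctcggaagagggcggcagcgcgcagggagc
Dusp22 (chr13:30659809-30660058, plus strand): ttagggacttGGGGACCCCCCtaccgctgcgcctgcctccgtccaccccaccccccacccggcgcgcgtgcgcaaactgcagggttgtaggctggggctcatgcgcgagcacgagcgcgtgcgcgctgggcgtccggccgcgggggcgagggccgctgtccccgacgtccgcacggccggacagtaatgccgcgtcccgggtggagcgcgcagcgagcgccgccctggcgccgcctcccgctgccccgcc
The Dusp1 sequence held a CRE from 143 to 136 bases before the start and a further TGACG from 191 to 187. The Dusp22 sequence held overlapping NF-kB matches from 240 to 230 bases before the start. The Dusp14 sequence held none of the 5 motifs.

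Across the 9 members with an entry, the CRE was found upstream of 1 (Dusp1) and in 1.55% of all 32851 promoter windows of this length. The TGACG core, which also lies inside the CRE, was found upstream of 3 (Dusp1, Dusp5 and Dusp16) and in 17.8% of all windows. The NF-kB motif was found upstream of 1 (Dusp22) and in 7.25%. The serum response motif was found upstream of 1, Dusp5, with adjoining matches from 82 to 63 bases before the start, and in 1.47%. TGANTCA was found upstream of none and in 6.75%. Such matches describe letters in a window and no binding was measured.

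Signals are given on a log2 scale on which 0 is the 75th percentile of the processed intensities of an array. They compare conditions for a probe and do not rank probes. On an array 46.6% to 60.6% of the spots were well above background, and 12 of the 13 member probes were so on all 12 arrays. Arrays of a condition differed by a median of 0.05 for unstimulated cells and 0.06 for anti-CD40 with Pam2CSK4, whose arrays lay on slide 1, and by 0.18 to 0.30 for the other conditions, whose arrays lay on different slides (log2, bright probes). The slide therefore runs with the replicate number in 4 conditions, and 5 of the 10 members, against 61.5% of all genes, differed between the slides at an adjusted p under 0.05. The brighter Dusp1 probe differed by -0.37 (log2, slide 2 minus slide 1) and the dimmer one by -0.041. A fit that held the slide as a block is called the slide-block fit. Its values and those of slide 1 alone are given where they change a call against unstimulated cells. For other comparisons mostly the genes called are named. Slide 1 holds 1 array each of Pam2CSK4, anti-CD86, TLR2.CD86 and anti-CD40, so p-values within it take their spread from the unstimulated arrays and those of anti-CD40 with Pam2CSK4 and assume that a lone array varies like them. The 2 arrays of a condition are separate samples in the labels. Without a block, the spread behind the p-values was pooled over the 6 conditions, and in 4 of them it also holds the difference between slides.

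All 10 B cell markers examined (among them Cd79b and Ms4a1) were well above background on all arrays. Their summed linear signal was 355 to 385 in unstimulated cells and 459 to 513 under anti-CD40 with Pam2CSK4, in multiples of the 75th percentile signal, and 1 was higher and none lower in the test of that comparison. Of 10 myeloid markers measured, all were above background on every array, with a sum of 358 to 387 in unstimulated cells and 368 to 416 under anti-CD40 with Pam2CSK4, and 4 were lower and none higher. Of 9 T cell markers 8, of 6 NK cell markers 5 and of 5 plasma cell markers 5 were above background on all arrays. T cell marker sums were 23.1 to 23.5 in unstimulated cells and 23.4 under anti-CD40 with Pam2CSK4, NK cell sums were 19.7 to 20.0 and 15.2 to 16.1, and plasma cell sums were 208 to 230 and 294 to 299. No T cell marker was called in that comparison, 1 NK cell marker was lower, and 1 plasma cell marker was higher and 1 lower. Cd79b, a myeloid marker and a plasma cell marker each had a lowest signal of 7.40, and saturation was not examined for the markers. A probe at the scanner ceiling follows the 75th percentile of the array. Its log2 value was 8.43 and 8.25 in unstimulated cells and 8.06 and 7.86 under anti-CD40 with Pam2CSK4. The part of this scaling in the sums was not tested. The part of other cells in the DUSP signals was not tested, and in these bulk samples fewer cells of a type and less RNA per cell cannot be told apart.

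The DUSPs differed among the conditions in 7 of 10 cases (limma F-test, adjusted p under 0.05), whereas 20.8% of the 16751 genes tested did. These were Dusp1, Dusp2, Dusp4, Dusp7, Dusp14, Dusp16 and Dusp22, and the members not called were Dusp5 (adjusted p = 0.465), Dusp6 (0.0738) and Dusp10 (0.124). The slide-block fit called 9, with Dusp6 and Dusp10 in addition, and 65.1% of all genes. The count without a block was 3 when either array of anti-CD40 with Pam2CSK4 was left out. With each array centred on its median intensity, which lay between 17.3 and 51.3 and near the lowest signal well above background (19.5 to 32.9), it was 0. That scaling moved the median difference over all genes under anti-CD40 from -0.15 to -0.72 (log2), and every member difference called without a block kept its direction under it.

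**Figure D1:**
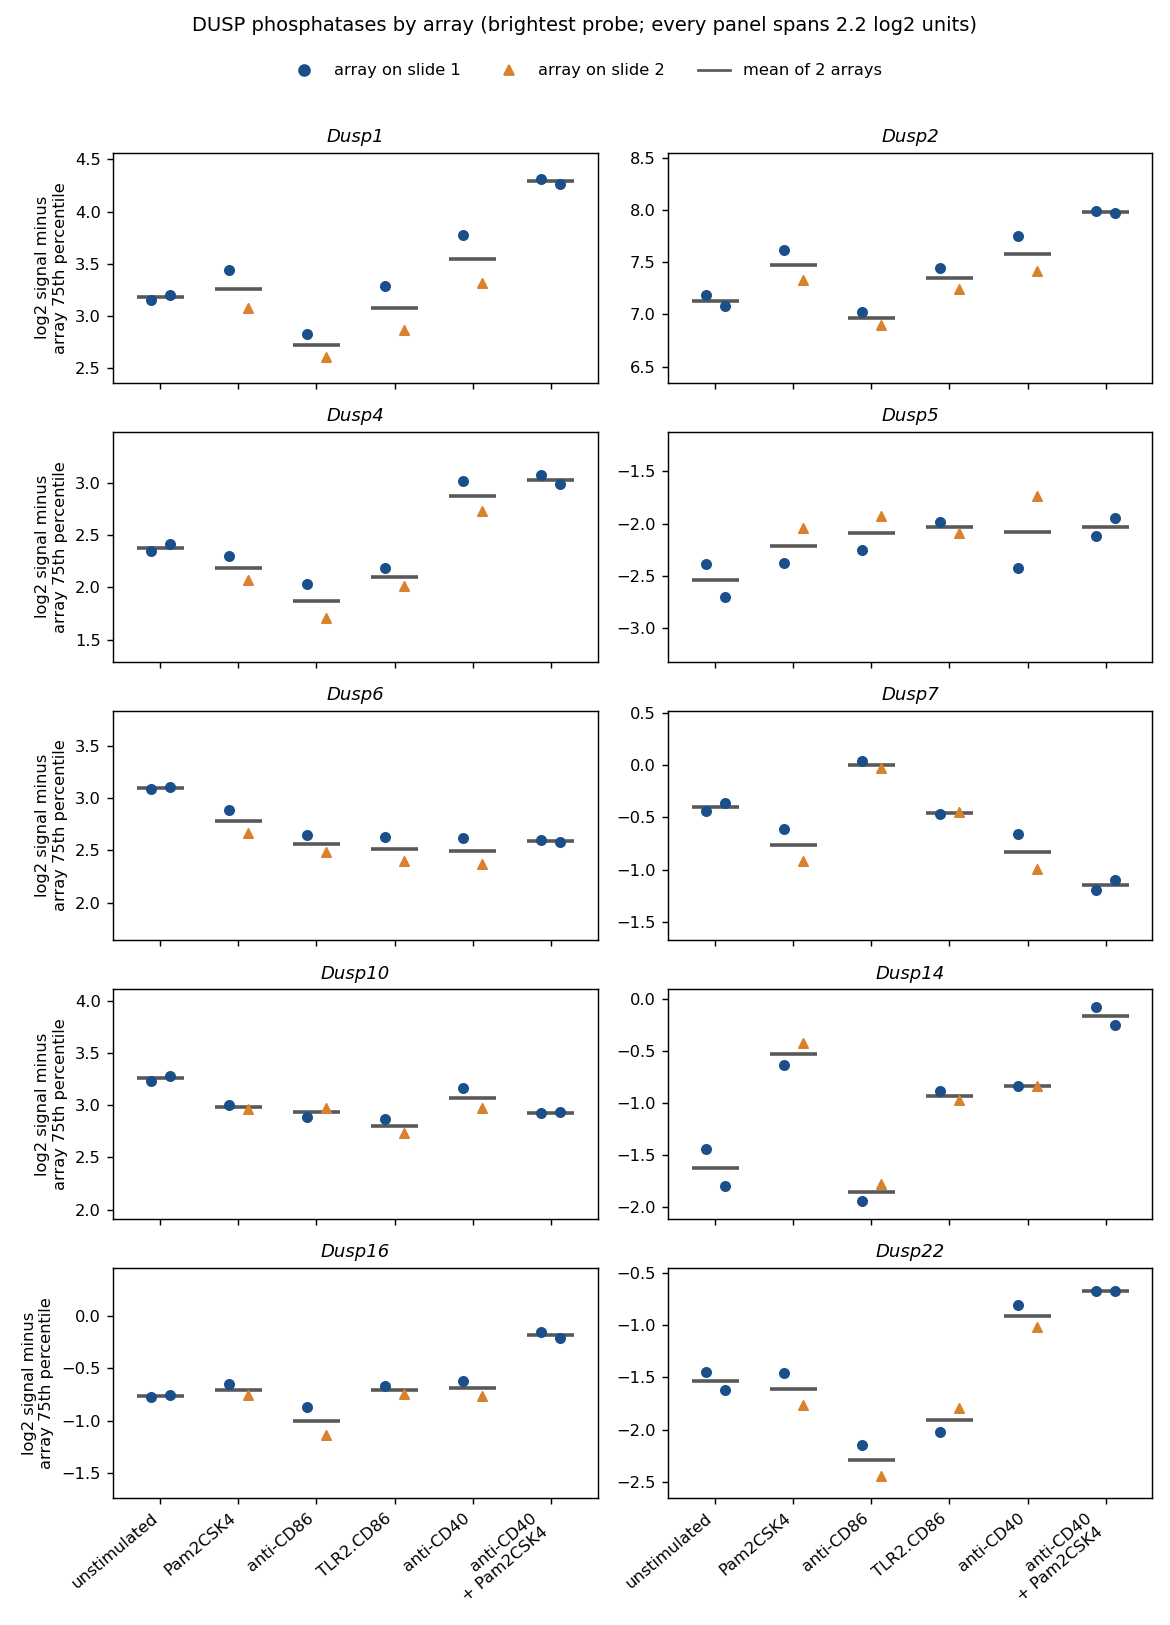
Log2 signal of the brightest probe of each DUSP (y axis, minus the 75th percentile of the array) on the 12 arrays, by condition (x axis). Circles are arrays of slide 1, triangles are arrays of slide 2 and lines are means of 2 arrays. Anti-CD40 with Pam2CSK4 gave the highest arrays for Dusp1, Dusp2, Dusp14, Dusp16 and Dusp22 and the lowest for Dusp7, and unstimulated cells gave the highest for Dusp6 and Dusp10.

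Of the inducible nuclear phosphatases, Dusp1, which acts chiefly on p38 and JNK, was highest with anti-CD40 and Pam2CSK4 together. Its signal was 3.16 and 3.21 in unstimulated cells, 3.44 and 3.08 with Pam2CSK4, 2.83 and 2.61 with anti-CD86 and 3.29 and 2.86 with TLR2.CD86. It was 3.78 and 3.32 with anti-CD40 and 4.32 and 4.27 with anti-CD40 and Pam2CSK4. Both arrays of the last condition lay above all others, and both anti-CD86 arrays lay below all others. The rise over unstimulated cells was 1.11 (SE 0.21, adjusted p = 0.0096) on the log2 scale, or 2.16-fold. The anti-CD40 difference of 0.37 (SE 0.21, adjusted p = 0.255) did not pass the test. It was 0.55 in the slide-block fit (adjusted p = 0.00207) and 0.60 within slide 1 (adjusted p = 0.0265). The anti-CD86 difference was -0.46 (SE 0.21, adjusted p = 0.236). It was -0.28 in the slide-block fit (adjusted p = 0.0342) and -0.35 within slide 1 (adjusted p = 0.0638).

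Dusp2, first described in activated T cells, had a single probe, which was saturated on the replicate 1 array of anti-CD40 and on the replicate 1 array of anti-CD40 with Pam2CSK4. Its signal was 7.18 and 7.08 in unstimulated cells, 7.61 and 7.33 with Pam2CSK4, 7.02 and 6.90 with anti-CD86 and 7.45 and 7.24 with TLR2.CD86. It was 7.75 and 7.41 with anti-CD40 and 7.99 and 7.97 with anti-CD40 and Pam2CSK4. The order by condition was that of Dusp1 except that TLR2.CD86 lay above unstimulated cells, with no overlap between their arrays. The rise under anti-CD40 with Pam2CSK4 was 0.85 (SE 0.16, adjusted p = 0.00869), or 1.8-fold. TLR2.CD86 gave 0.21 (SE 0.16, adjusted p = 0.392), which was 0.33 in the slide-block fit (adjusted p = 0.0158) and 0.31 within slide 1. Pam2CSK4 alone gave 0.34 (SE 0.16, adjusted p = 0.338) and anti-CD40 alone gave 0.45 (SE 0.16, adjusted p = 0.0842). The Pam2CSK4 difference was 0.46 in the slide-block fit (adjusted p = 0.0188) and 0.48 within slide 1 (adjusted p = 0.131), and that of anti-CD40 was 0.57 in the slide-block fit (adjusted p = 0.00189) and 0.62 within slide 1 (adjusted p = 0.0281).

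Dusp4, a close relative of Dusp1 that takes ERK and JNK as substrates, split the conditions by the presence of anti-CD40. Its signal was 2.35 and 2.41 in unstimulated cells, 2.30 and 2.07 with Pam2CSK4, 2.03 and 1.71 with anti-CD86 and 2.18 and 2.01 with TLR2.CD86. It was 3.02 and 2.73 with anti-CD40 and 3.07 and 2.99 with anti-CD40 and Pam2CSK4. The 4 arrays with anti-CD40 lay above the other 8, and the arrays of the 2 anti-CD40 conditions overlapped. The rise with both signals was 0.65 (SE 0.16, adjusted p = 0.027), or 1.57-fold. Anti-CD40 alone gave 0.49 (SE 0.16, adjusted p = 0.0693), which was 0.62 in the slide-block fit (adjusted p = 0.000867) and 0.64 within slide 1 (adjusted p = 0.0276). Anti-CD86 gave -0.51 (SE 0.16, adjusted p = 0.115), which was -0.39 in the slide-block fit (adjusted p = 0.00757) and -0.35 within slide 1 (adjusted p = 0.0736).

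Dusp5, an ERK-specific phosphatase of the nucleus whose upstream window held the serum response motif, was not called in any comparison with all arrays. Its probe was dim, with -2.38 and -2.71 in unstimulated cells, -2.38 and -2.04 with Pam2CSK4 and -2.25 and -1.93 with anti-CD86. TLR2.CD86 gave -1.99 and -2.09, anti-CD40 gave -2.42 and -1.74 and anti-CD40 with Pam2CSK4 gave -2.12 and -1.95. The arrays of the stimulated conditions overlapped one another, and the 2 anti-CD40 arrays were the lowest and the highest of all stimulated arrays. The 5 differences from unstimulated cells were between 0.33 and 0.51, with an SE of 0.24 and adjusted p-values of 0.182 to 0.504. The 95% interval for anti-CD40 with Pam2CSK4 ran from -0.049 to 1.08, which holds both 0 and the difference of Dusp4.

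Both ERK phosphatases of the cytoplasm fell with anti-CD40 and Pam2CSK4. Dusp6, an established readout of ERK activity, gave 3.09 and 3.11 in unstimulated cells, 2.89 and 2.66 with Pam2CSK4, 2.65 and 2.48 with anti-CD86 and 2.63 and 2.40 with TLR2.CD86. It gave 2.62 and 2.37 with anti-CD40 and 2.60 and 2.58 with anti-CD40 and Pam2CSK4. All 10 stimulated arrays lay below both unstimulated arrays. Dusp6 fell with TLR2.CD86 (-0.58, SE 0.14, adjusted p = 0.0416), anti-CD40 (-0.60, SE 0.14, adjusted p = 0.0275) and anti-CD40 with Pam2CSK4 (-0.51, SE 0.14, adjusted p = 0.0432). The anti-CD86 difference of -0.53 (SE 0.14, adjusted p = 0.0868) was -0.42 in the slide-block fit (adjusted p = 0.00303) and -0.45 within slide 1 (adjusted p = 0.0523), and that of Pam2CSK4, -0.32 (SE 0.14, adjusted p = 0.328), was -0.21 in the slide-block fit (adjusted p = 0.0445) and -0.21 within slide 1 (adjusted p = 0.178). The F-test over all conditions did not pass for Dusp6.

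Dusp7 was the member whose anti-CD86 arrays were the highest. Its signal was 0.039 and -0.031 with anti-CD86, -0.44 and -0.36 in unstimulated cells and -0.47 and -0.45 with TLR2.CD86. It was -0.61 and -0.92 with Pam2CSK4, -0.66 and -1.0 with anti-CD40 and -1.19 and -1.10 with anti-CD40 and Pam2CSK4. The anti-CD86 arrays stood above all 10 others and those of anti-CD40 with Pam2CSK4 below all 10 others. The fall under anti-CD40 with Pam2CSK4 was -0.75 (SE 0.15, adjusted p = 0.0116). The anti-CD86 difference of 0.40 (SE 0.15, adjusted p = 0.16) did not pass and was 0.49 in the slide-block fit (adjusted p = 0.0172) and 0.44 within slide 1 (adjusted p = 0.0615). The anti-CD40 difference of -0.43 (SE 0.15, adjusted p = 0.0831) was -0.34 in the slide-block fit (adjusted p = 0.0435) and -0.26 within slide 1 (adjusted p = 0.104).

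The p38 and JNK phosphatases Dusp10 and Dusp16 moved in different comparisons. Dusp10, which limits JNK and cytokine responses in T cells and macrophages, gave 3.24 and 3.28 in unstimulated cells, 3.0 and 2.96 with Pam2CSK4, 2.89 and 2.98 with anti-CD86 and 2.87 and 2.73 with TLR2.CD86. It gave 3.16 and 2.97 with anti-CD40 and 2.92 and 2.94 with anti-CD40 and Pam2CSK4. The unstimulated arrays lay above all others and the TLR2.CD86 arrays below all others. Dusp10 fell with TLR2.CD86 (-0.46, SE 0.11, adjusted p = 0.0418). This call was lost with median normalization, normexp background correction or no filter on dim probes, and when either Pam2CSK4 array was left out. The difference under anti-CD40 with Pam2CSK4, -0.33 (SE 0.11, adjusted p = 0.0808), was -0.33 in the slide-block fit (adjusted p = 0.0115) and -0.33 within slide 1 (adjusted p = 0.0217). That of anti-CD86, -0.33 (SE 0.11, adjusted p = 0.139), was -0.29 in the slide-block fit (adjusted p = 0.036) and -0.37 within slide 1 (adjusted p = 0.0582).

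Dusp16, which retains JNK outside the nucleus, was highest with anti-CD40 and Pam2CSK4 and lowest with anti-CD86. Its signal was -0.15 and -0.21 with anti-CD40 and Pam2CSK4, -0.78 and -0.76 in unstimulated cells and -0.65 and -0.76 with Pam2CSK4. It was -0.62 and -0.76 with anti-CD40, -0.67 and -0.75 with TLR2.CD86 and -0.87 and -1.13 with anti-CD86. The arrays of anti-CD40 with Pam2CSK4 were above the other 10, and those of anti-CD86 below them. The rise with both signals was 0.59 (SE 0.12, adjusted p = 0.0146), or 1.5-fold, against 0.077 (SE 0.12, adjusted p = 0.696) for anti-CD40 alone and 0.065 (SE 0.12, adjusted p = 0.812) for Pam2CSK4 alone.

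Of the atypical members, Dusp14 had the largest difference from unstimulated cells of the 10 members by its brighter probe. Its signal was -1.44 and -1.80 in unstimulated cells, -0.63 and -0.42 with Pam2CSK4, -1.94 and -1.77 with anti-CD86 and -0.89 and -0.97 with TLR2.CD86. It was -0.83 and -0.84 with anti-CD40 and -0.085 and -0.26 with anti-CD40 and Pam2CSK4. The unstimulated and anti-CD86 arrays overlapped and lay below the other 8, and the arrays with both anti-CD40 and Pam2CSK4 were the highest. Dusp14 rose with TLR2.CD86 (0.69, SE 0.15, adjusted p = 0.0307), anti-CD40 (0.79, SE 0.15, adjusted p = 0.0149) and anti-CD40 with Pam2CSK4 (1.45, SE 0.15, adjusted p = 0.000884, or 2.73-fold). Within slide 1 the TLR2.CD86 and anti-CD40 differences were 0.73 (adjusted p = 0.0803) and 0.79 (adjusted p = 0.0694). Pam2CSK4 alone gave 1.09 (SE 0.15, adjusted p = 0.0553), which did not pass and was 1.05 in the slide-block fit (adjusted p = 0.0129) and 0.99 within slide 1 (adjusted p = 0.139).

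Dusp22, which is known to inactivate Lck in T cells, was ordered by the antibody. Its signal was -1.45 and -1.63 in unstimulated cells and -1.46 and -1.77 with Pam2CSK4. It was -2.15 and -2.44 with anti-CD86 and -2.02 and -1.79 with TLR2.CD86, against -0.80 and -1.02 with anti-CD40 and -0.68 and -0.67 with anti-CD40 and Pam2CSK4. By the brighter probe, all 4 arrays with anti-CD86 lay below the unstimulated and Pam2CSK4 arrays, which overlapped, and all 4 with anti-CD40 lay above them. Dusp22 rose with anti-CD40 (0.62, SE 0.17, adjusted p = 0.0394) and with anti-CD40 and Pam2CSK4 (0.86, SE 0.17, adjusted p = 0.0102, or 1.82-fold). The call for anti-CD40 alone was lost with median or quantile normalization, normexp background correction, no moderation or no filter on dim probes. The anti-CD86 difference of -0.76 (SE 0.17, adjusted p = 0.0597) did not pass and was -0.68 in the slide-block fit (adjusted p = 0.0167) and -0.61 within slide 1 (adjusted p = 0.056). That of TLR2.CD86 was -0.37 (SE 0.17, adjusted p = 0.176).

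Dusp1, Dusp14 and Dusp22 were each read by a second, dimmer probe, and the first 30 of the 60 bases of each probe are shown since the pairs are separate measurements of a gene. No capitals are used here.
Dusp1, brighter probe: tttttctagaaacttcatgcttgacacacc
Dusp1, dimmer probe: gcgtatgagagtttttacctttatttattt
Dusp14, brighter probe: ttctataagttaagttcattgttgtttagt
Dusp14, dimmer probe: tattgcgtacctgatgaaattccacaatct
Dusp22, brighter probe: atgttaagatctatggatattctgtagcaa
Dusp22, dimmer probe: tccagcggcagacacaccatctcaaaacct
The positions of the probes in the genome were not used here.

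The dimmer Dusp1 probe gave 2.58 and 2.61 in unstimulated cells, 3.18 and 3.0 with anti-CD40 and 3.62 and 3.60 with anti-CD40 and Pam2CSK4. Its arrays of the last condition again lay above all others, with a rise of 1.01 (SE 0.10, adjusted p = 0.000819), and it was also called for anti-CD40 alone, with 0.49 (SE 0.10, adjusted p = 0.0191). The dimmer Dusp14 probe gave -3.66 and -4.21 in unstimulated cells, where the replicate 2 array was not well above background, -2.28 and -2.48 with Pam2CSK4 and -3.10 and -3.40 with anti-CD86. It gave -2.35 and -2.53 with TLR2.CD86, -1.89 and -2.12 with anti-CD40 and -1.62 and -1.72 with anti-CD40 and Pam2CSK4. Unlike the brighter probe, its anti-CD86 arrays lay above both unstimulated arrays, with 0.68 (SE 0.20, adjusted p = 0.104) against -0.24 (SE 0.15, adjusted p = 0.397) for the brighter one. It was called for Pam2CSK4 alone, with 1.55 (SE 0.20, adjusted p = 0.0459). The dimmer Dusp22 probe gave -1.70 and -1.68 in unstimulated cells, -1.85 and -2.01 with Pam2CSK4 and -1.81 and -2.08 with anti-CD86, and the arrays of the last pair of conditions overlapped, unlike those of the brighter probe. Its anti-CD86 difference was -0.25 (SE 0.17, adjusted p = 0.426). It gave -2.07 and -2.27 with TLR2.CD86, -1.24 and -1.42 with anti-CD40 and -1.0 and -1.41 with anti-CD40 and Pam2CSK4. The unstimulated arrays and those of the last condition did not overlap, but the difference of 0.48 (SE 0.17, adjusted p = 0.092) did not pass, and it was 0.48 in the slide-block fit (adjusted p = 0.0177).

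**Figure D2:**
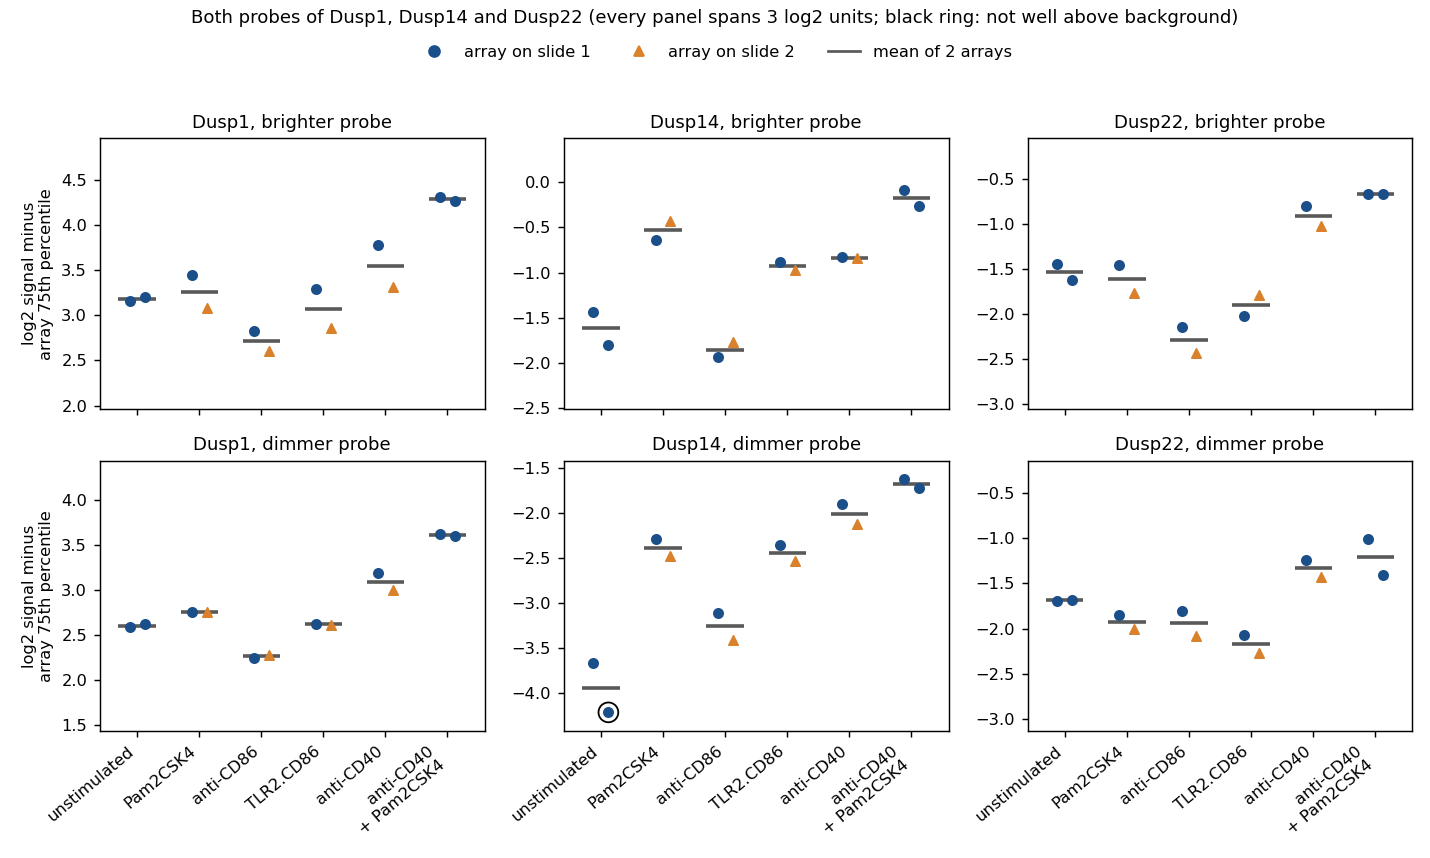
Log2 signal of the brighter (top) and dimmer (bottom) probe of Dusp1, Dusp14 and Dusp22 on each array (y axis, minus the 75th percentile of the array) by condition (x axis). Symbols show the slide, lines are means of 2 arrays and the ring marks an array where the probe was not well above background. Anti-CD40 with Pam2CSK4 has the highest mean in all 6 panels, and the anti-CD86 arrays lie above the unstimulated ones for the dimmer Dusp14 probe.

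The comparisons with unstimulated cells share the same 2 control arrays. Anti-CD40 with Pam2CSK4 changed the most members. Of 10, 6 rose (Dusp1, Dusp2, Dusp4, Dusp14, Dusp16 and Dusp22), and 7.31% of all genes tested did. The members that fell were 2 (Dusp6 and Dusp7), and 12.9% of all genes fell. All arrays of this comparison lay on slide 1, and the slide-block fit called Dusp10 lower as well, beside 21.6% of all genes higher and 31.4% lower. The median difference over the members was 0.62 and over all genes -0.083 (log2). Without the unstimulated replicate 1 array, 2 members passed (Dusp14 and Dusp22). Without unstimulated replicate 2, or without either array of anti-CD40 with Pam2CSK4, 1 passed (Dusp14).

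Anti-CD40 alone raised 2 members (Dusp14 and Dusp22), beside 4.6% of all genes, and lowered 1 (Dusp6), beside 14.8%. The slide-block fit gave 5 higher (Dusp1, Dusp2, Dusp4, Dusp14 and Dusp22) and 2 lower (Dusp6 and Dusp7), beside 12.9% and 29.6% of all genes. Without anti-CD40 replicate 2 or unstimulated replicate 2 no member passed, and without unstimulated replicate 1 or either array of anti-CD40 with Pam2CSK4 only Dusp14 did. Without anti-CD40 replicate 1, which leaves 1 array of that condition, 4 passed (Dusp5, Dusp6, Dusp7 and Dusp14). The members had a median of 0.41 and all genes of -0.15.

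TLR2.CD86 raised 1 member (Dusp14), beside 1.75% of all genes, and lowered 2 (Dusp6 and Dusp10), beside 10.3%. The medians were -0.082 over the members and -0.17 over all genes. The slide-block fit also called Dusp2 higher, beside 10.6% of all genes higher and 28.3% lower. When any 1 array of unstimulated cells, anti-CD86, TLR2.CD86 or anti-CD40 with Pam2CSK4 was left out, no member passed, the adjusted p-values of the 3 being 0.0307 to 0.0418 with all arrays.

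Pam2CSK4 and anti-CD86 alone gave no call in limma's test. For Pam2CSK4 0 of 10 members passed, and 0.143% of all genes did, while 3 members had an unadjusted p under 0.05. The slide-block fit called 3 (Dusp2 and Dusp14 higher, Dusp6 lower), beside 4.17% of all genes higher and 7.75% lower. For anti-CD86 0 of 10 members passed, and 1.97% of all genes did, while 5 members had an unadjusted p under 0.05. The slide-block fit called 6, with Dusp7 higher and Dusp1, Dusp4, Dusp6, Dusp10 and Dusp22 lower. In both comparisons slide 1 alone, which leaves 1 array of the stimulated condition, called none. The median member difference was -0.0045 for Pam2CSK4 and -0.28 for anti-CD86, against -0.14 and -0.15 over all genes.

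**Figure D3:**
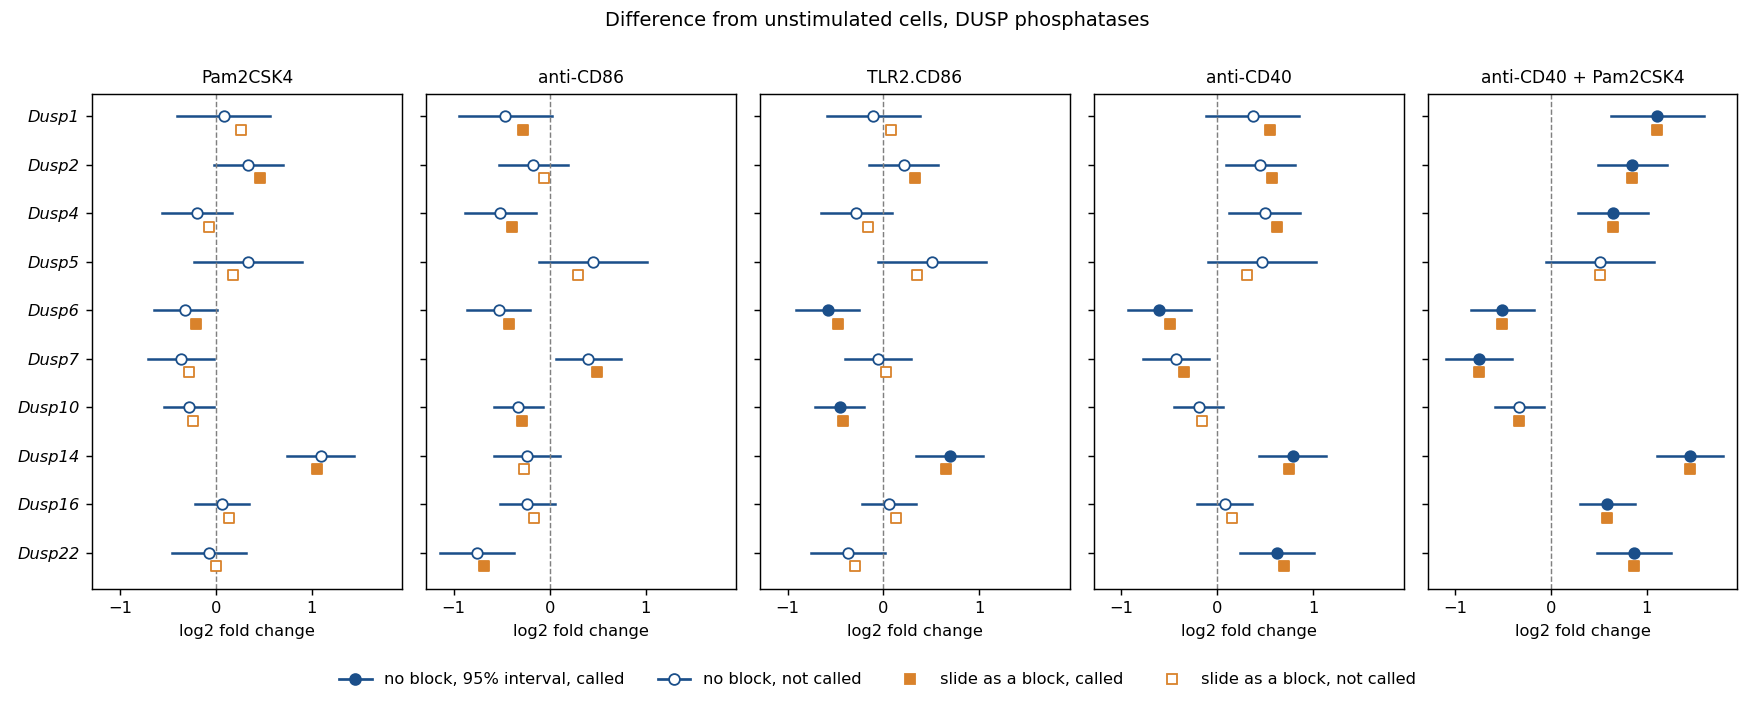
Log2 fold change from unstimulated cells (x axis) of each DUSP (y axis) under 5 stimuli. Circles with lines are estimates with 95% intervals without a block, squares are estimates of the slide-block fit, and filled symbols passed at an adjusted p under 0.05. Filled circles number 0 for Pam2CSK4, 0 for anti-CD86, 3 for TLR2.CD86, 3 for anti-CD40 and 8 for anti-CD40 with Pam2CSK4.

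The antibodies were compared in the presence of Pam2CSK4. Against TLR2.CD86, anti-CD40 with Pam2CSK4 gave higher signals of 6 members (Dusp1, Dusp2, Dusp4, Dusp14, Dusp16 and Dusp22), beside 8.44% of all genes, and a lower signal of 1 (Dusp7), beside 4.64%. The differences were 1.23 (SE 0.17, adjusted p = 0.00399) for Dusp22, 1.21 (SE 0.21, adjusted p = 0.00978) for Dusp1 and 0.93 (SE 0.16, adjusted p = 0.00954) for Dusp4. They were 0.76 (SE 0.15, adjusted p = 0.0167) for Dusp14, 0.63 (SE 0.16, adjusted p = 0.0361) for Dusp2 and 0.53 (SE 0.12, adjusted p = 0.0291) for Dusp16. That of Dusp7 was -0.69 (SE 0.15, adjusted p = 0.0221). The slide-block fit called the same 7, beside 22.0% of all genes higher and 16.2% lower. The Dusp14 difference was 0.72 within slide 1 (adjusted p = 0.0881).

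For Dusp6 the difference between these conditions was 0.075 (95% interval -0.25 to 0.40), for Dusp5 0.0064 (-0.56 to 0.57) and for Dusp10 0.13 (-0.13 to 0.38). Without either array of anti-CD40 with Pam2CSK4, or without TLR2.CD86 replicate 2, 1 member passed (Dusp22). Without TLR2.CD86 replicate 1, 3 did (Dusp1, Dusp4 and Dusp22). The second Dusp22 probe differed by 0.97 (SE 0.17, adjusted p = 0.0109) and the second Dusp1 probe by 0.99 (SE 0.10, adjusted p = 0.00147).

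Adding an antibody to Pam2CSK4 changed members for anti-CD40. Against Pam2CSK4 alone, anti-CD40 with Pam2CSK4 raised 4 (Dusp1, Dusp4, Dusp16 and Dusp22), beside 6.39% of all genes. Dusp1 rose by 1.03 (SE 0.21, adjusted p = 0.0211), Dusp22 by 0.94 (SE 0.17, adjusted p = 0.0127), Dusp4 by 0.84 (SE 0.16, adjusted p = 0.0161) and Dusp16 by 0.52 (SE 0.12, adjusted p = 0.0355). None passed without Pam2CSK4 replicate 2 or without either array of anti-CD40 with Pam2CSK4. The slide-block fit also called Dusp2 higher and Dusp6 and Dusp7 lower, beside 16.0% of all genes higher and 18.7% lower. Dusp14 differed by 0.36 (SE 0.15, adjusted p = 0.178).

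For TLR2.CD86 against Pam2CSK4 0 of 10 members passed, and 0.0298% of all genes did, with 1 member at an unadjusted p under 0.05. Dusp6 was lower in the slide-block fit, which called 7.86% of all genes lower. The intervals left room for differences either way, for example -0.67 to 0.30 for Dusp1 and -0.49 to 0.23 for Dusp2. For TLR2.CD86 against anti-CD86 0 of 10 passed, and 0.197% of all genes did, with 5 members at an unadjusted p under 0.05. Of these Dusp14 had the largest difference, 0.93 (SE 0.15, adjusted p = 0.0899), which was 0.93 in the slide-block fit (adjusted p = 0.0177) and 1.05 within slide 1 (adjusted p = 0.229). The slide-block fit called 5, with Dusp1, Dusp2, Dusp14 and Dusp16 higher and Dusp7 lower, beside 2.71% and 4.73% of all genes.

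Adding Pam2CSK4 to anti-CD40 gave 0 of 10 members, and 2.57% of all genes, past the test (4 members at an unadjusted p under 0.05). The differences were 0.74 (SE 0.21, adjusted p = 0.119) for Dusp1, 0.66 (SE 0.15, adjusted p = 0.064) for Dusp14 and 0.51 (SE 0.12, adjusted p = 0.0761) for Dusp16. The slide-block fit called these 3 higher and Dusp7 lower, beside 9.33% and 6.48% of all genes. The second Dusp1 probe passed without a block, with 0.52 (SE 0.10, adjusted p = 0.0396).

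**Figure D4:**
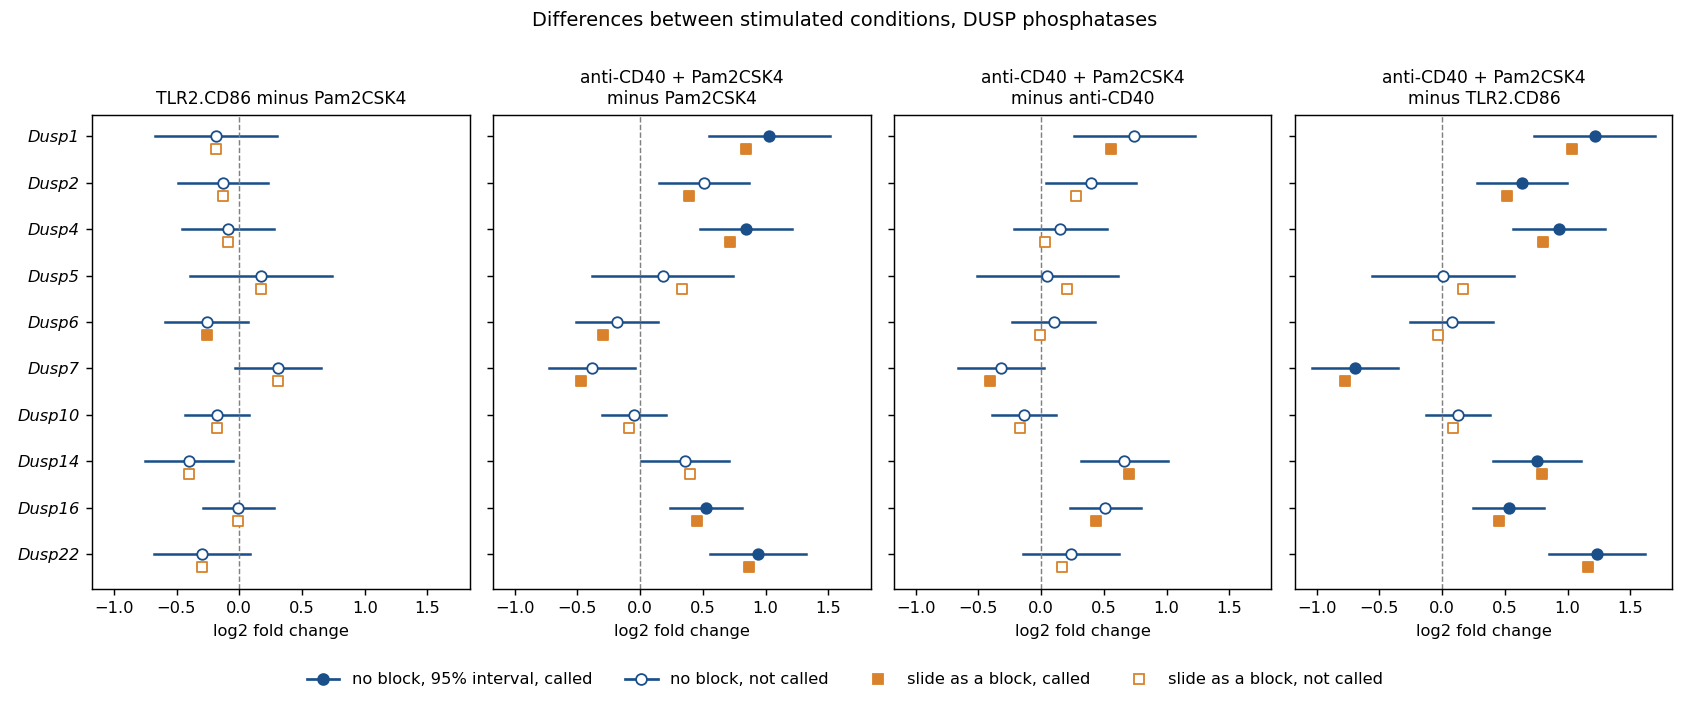
Log2 fold change between stimulated conditions (x axis) of each DUSP (y axis), with 95% intervals (circles, without a block) and estimates of the slide-block fit (squares). Filled symbols passed at an adjusted p under 0.05. Filled circles number 0 in the TLR2.CD86 minus Pam2CSK4 panel, 4 and 0 in the panels of anti-CD40 with Pam2CSK4 minus each single signal, and 7 in the panel against TLR2.CD86.

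The interaction of both signals, the log2 effect of the combination minus the sum of the single effects, was tested for each antibody. For anti-CD86 and Pam2CSK4 0 of 10 members passed, and 0.00597% of all genes (1 gene) did, with 0 members at an unadjusted p under 0.05. For anti-CD40 and Pam2CSK4 0 of 10 members passed, and 0.842% of all genes did, with 1 member, Dusp16, at an unadjusted p under 0.05 (0.45, SE 0.17, adjusted p = 0.232). The slide-block fit also called no member by its brightest probe, beside 0.143% of all genes for anti-CD86 and 8.2% for anti-CD40. The anti-CD40 interaction was 0.66 (SE 0.30, adjusted p = 0.269) for Dusp1 and -0.43 (SE 0.21, adjusted p = 0.297) for Dusp14. Over members the median interaction was 0.19 for anti-CD86 and 0.23 for anti-CD40, against 0.10 and 0.26 over all genes.

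The genes most like the 3 members with the largest F statistic were found by Pearson's r of the log2 signal over the 12 arrays, which share 6 conditions and 2 slides, among 15834 genes. Those most like Dusp14 were Ankrd57 (r = 0.945, rho = 0.951), Nfkbiz (r = 0.942, rho = 0.895), which encodes a nuclear IkB protein, and Gadd45b (r = 0.916, rho = 0.888), a stress sensor that binds MAP kinase kinases. Those most like Dusp22 were Gm9115 (r = 0.979, rho = 0.965), Arpp19 (r = 0.975, rho = 0.986), which encodes an inhibitor of protein phosphatase 2A, and Arl5b (r = 0.971, rho = 0.951), a small GTPase. Those most like Dusp4 were Psme2 (r = 0.990, rho = 0.972), a proteasome activator subunit, Arl5b (r = 0.989, rho = 0.986) and Klf10 (r = 0.988, rho = 0.972), a zinc finger repressor. Under anti-CD40 with Pam2CSK4 the log2 difference from unstimulated cells was 1.21 for Ankrd57, 2.41 for Nfkbiz and 1.60 for Gadd45b, beside 1.45 for Dusp14. These genes were picked for their likeness to Dusp14 on the same arrays, so their rise is not separate evidence.

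The other dual-specificity phosphatases moved both ways. Of 16 on the array, 8 were tested, and under anti-CD40 with Pam2CSK4 2 rose and 2 fell, beside 7.31% and 12.9% of all genes. Their median difference was -0.27, and that of all genes was -0.083. Members and this list were chosen with earlier results of these data known, so a difference between them was not tested. Dusp8, a JNK and p38 phosphatase, rose by 1.12 (SE 0.11, adjusted p = 0.000802), and by 0.51 (SE 0.11, adjusted p = 0.0321) with TLR2.CD86. Styx, a catalytically inactive relative, rose by 0.63 (SE 0.12, adjusted p = 0.0102). Dusp3, a small atypical phosphatase, changed by -0.65 (SE 0.17, adjusted p = 0.0321) and Dusp19 by -0.85 (adjusted p = 0.0425). Of 10 other phosphatases of MAP kinases tested, such as Ppp2ca and Ptpn7, none passed in any of the 5 comparisons with unstimulated cells or in the F-test, with 0 to 3 at an unadjusted p under 0.05 by limma. The slide-block fit called 1 higher and 2 lower under anti-CD40 with Pam2CSK4, beside 21.6% and 31.4% of all genes.

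Of 11 MAP kinases tested 1 fell and none rose under anti-CD40 with Pam2CSK4, where 12.9% of all genes fell and 7.31% rose. The slide-block fit called 4 of them lower and 2 higher, beside 31.4% and 21.6% of all genes. The gene that fell was Mapk14 (p38 alpha), by -0.56 (SE 0.15, adjusted p = 0.0403), and with anti-CD40 alone the same gene gave -0.91 (SE 0.15, adjusted p = 0.00998). Mapk9, which encodes a JNK, passed the F-test, and its anti-CD86 difference was 0.51 (SE 0.19, adjusted p = 0.156), or 0.62 in the slide-block fit (adjusted p = 0.0219). Of 21 upstream kinases 3 rose and none fell under anti-CD40 with Pam2CSK4, whereas the slide-block fit called 7 higher and 6 lower. The 3 were Map3k8, an activator of ERK downstream of TLRs and CD40, by 1.19 (SE 0.17, adjusted p = 0.00324), Map3k14 by 0.64 (adjusted p = 0.0335) and Braf by 0.45 (adjusted p = 0.0261). With TLR2.CD86 2 rose, Map3k3 by 0.72 (SE 0.11, adjusted p = 0.0146) and Map2k7 by 0.78 (SE 0.19, adjusted p = 0.0419), beside 1.75% of all genes.

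Among 10 inhibitors of RAS and ERK signalling tested, anti-CD40 with Pam2CSK4 raised 2 and lowered 2, beside 7.31% and 12.9% of all genes. The RAS GTPase activators Nf1 (1.74, SE 0.24, adjusted p = 0.00253) and Rasa2 (0.98, SE 0.16, adjusted p = 0.00518) rose. Errfi1 (-0.67, adjusted p = 0.0397) and Dab2ip (-0.48, adjusted p = 0.0247) fell. Among 23 immediate early genes tested 3 rose and 3 fell in that comparison, and the slide-block fit called 7 higher and 7 lower, with the same shares of all genes as above. Those that rose were Myc (2.29, SE 0.18, adjusted p = 0.000247), Ier5 (0.93, SE 0.15, adjusted p = 0.00533) and Jun (0.51, adjusted p = 0.0223), and those that fell were the transcription factors Egr1, Egr2 and Klf4, with differences of -0.46, -0.80 and -0.66. Ier3 passed with anti-CD40 alone, with -0.53 (SE 0.10, adjusted p = 0.0135). With TLR2.CD86 3 immediate early genes fell, Fos, Fosl2 and Egr2, and none rose, beside 10.3% and 1.75% of all genes. The slide-block fit called 6 lower and 2 higher, beside 28.3% and 10.6% of all genes. The median difference over the immediate early list was -0.0056 under anti-CD40 with Pam2CSK4, beside -0.083 for all genes.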

How the data were processed

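RNA was labelled with Cy3 and hybridised to a custom mouse array annotated to mm9. Spot intensity was deposited as written by Feature Extraction 10.5.1.1, and its processed column was used. Normalised log2 values from the authors lay within 0.01 of log2 processed intensity less 1 constant per array for 99.98% or more of the spots.

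Log2 intensity minus the 75th percentile was taken, without control and outlier spots (5 to 35 per array), and spots of a probe were averaged. Saturated spots were kept. A probe had to be well above background in both replicates of at least 1 condition (31669 of 61307), and the 31599 without a missing value were tested. Limma 3.58.1 (R 4.3.3) was fitted with 1 coefficient per condition over 12 arrays, with Benjamini-Hochberg adjustment over the probes tested and calls at an adjusted p under 0.05 (two-sided). A gene was given by its brightest probe. The script was tested on simulated data. Precision is limited by 2 arrays per condition. Python 3.11.15 and matplotlib 3.10.9 drew the figures.

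Members and gene lists were chosen with earlier results of these data known. Some marker genes are not reported here. Named were all members, up to 3 genes with the largest F from each pathway list, the 3 genes most like each of 3 members, and, after their values were seen, other called genes of small counts. Alternatives were median and quantile normalization, normexp (offset 50), the authors' log2 table, filters on dim probes, the slide or replicate number as a block, slide 1 alone, no moderation, the median over probes and leaving out each array.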

Additional observations from a re-analysis of the deposited data

How the results depend on the processing

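Counts are of members called, and the shares of all genes without a block and with the slide block are given above. Every count was 0 with median normalization, against 7 for the F-test, 3 for TLR2.CD86, 3 for anti-CD40 and 8 for anti-CD40 with Pam2CSK4 (each against unstimulated cells), 4 for anti-CD40 with Pam2CSK4 against Pam2CSK4 and 7 against TLR2.CD86. Without a filter on dim probes these were 2, 0, 0, 4, 0 and 2. For the comparisons the shares of all genes were then 0.072%, 3.26%, 8.57%, 2.99% and 4.05%. For Pam2CSK4 the count was 1, in place of 0, with quantile normalization, normexp, the stricter filter, no moderation or the median over probes. In these settings 0.203% to 0.549% of all genes were called. For anti-CD86 it was 1 with quantile normalization or the stricter filter, beside 5.92% and 5.20% of all genes. Quantile normalization gave 5 for anti-CD40, beside 24.5% of all genes, and 1 for adding Pam2CSK4 to anti-CD40, beside 3.81%. Counts that changed by a factor of up to 1.5 are not all listed. Among them, TLR2.CD86 had 4 with quantile normalization and 2 with normexp. The slide block gave 3 for Pam2CSK4, 6 for anti-CD86, 7 for anti-CD40, 1 for TLR2.CD86 against Pam2CSK4, 5 against anti-CD86, 7 for anti-CD40 with Pam2CSK4 against Pam2CSK4 and 4 against anti-CD40.

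Whether the same replicate number marks paired samples was not settled. Of 15 pairs of conditions, 6 had a correlation of replicate differences over 0.1 (range -0.11 to 0.67). The replicate number runs with the slide in 4 conditions, so pairing and slide cannot be told apart there. The replicate block gave 1 for Pam2CSK4, 3 for anti-CD86, 5 for anti-CD40 and 3 for adding Pam2CSK4 to anti-CD40, and 8 for the F-test. For these comparisons it called 0.675%, 13.9%, 34.3% and 6.10% of all genes. Leaving out 1 array gave 3 to 7 for the F-test, 0 to 3 for TLR2.CD86, 0 to 4 for anti-CD40, 1 to 8 for anti-CD40 with Pam2CSK4, 0 to 4 against Pam2CSK4 and 1 to 7 against TLR2.CD86, where a lone array was assumed to vary like the other conditions.

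No difference called without a block changed sign. Among differences from unstimulated cells that were not called without a block, some of which the slide block called, median normalization turned Dusp1 with Pam2CSK4 (-0.12) and anti-CD40 (-0.20), Dusp2 with TLR2.CD86 (-0.077) and anti-CD40 (-0.12), Dusp4 (-0.071) and Dusp5 (-0.10) with anti-CD40, and Dusp16 with Pam2CSK4 (-0.13), TLR2.CD86 (-0.23) and anti-CD40 (-0.49). Quantile normalization turned Dusp1 with TLR2.CD86 (0.046), Dusp2 with anti-CD86 (0.13) and Dusp16 with anti-CD40 (-0.011). With TLR2.CD86 the slide block turned Dusp1 (0.079) and Dusp7 (0.028), and slide 1 alone turned Dusp1 (0.11). With anti-CD86 the median over probes turned Dusp14 (0.22). With Pam2CSK4 slide 1 alone turned Dusp22 (0.082). Leaving out 1 array gave -0.10 to 0.26 for Dusp1 and -0.23 to 0.082 for Dusp22 with Pam2CSK4, and -0.32 to 0.11 for Dusp1 with TLR2.CD86. The authors' log2 table changed no count.

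These counts rest on 2 arrays per condition, the cause of the changes was not tested, and scaling to the median uses a level near background. The slide and the stimulated conditions can only in part be told apart, since both unstimulated arrays lay on slide 1. Saturation bounds Dusp2, and Dusp5 was dim.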
